A study of Mus musculus with 3 samples.

Results

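Alcohol and aldehyde dehydrogenases carry out consecutive steps of the same chemistry. Alcohol dehydrogenases are zinc enzymes that pass hydrogen from an alcohol to NAD+ and leave an aldehyde, and aldehyde dehydrogenases oxidise the aldehyde to an acid through a cysteine in the active site. In liver these enzymes clear ethanol, formaldehyde and the aldehydes of lipid peroxidation, and they turn retinol (vitamin A) through retinal into retinoic acid, the ligand of the retinoic acid receptors. The genes described here are 10 of these enzymes, Adh1, Adh4, Adh5, Adh7, Aldh1a1, Aldh1a7, Aldh1b1, Aldh2, Aldh3a2 and Aldh1l1, chosen by gene symbol from the 37620 gene identifiers of each table. Each of the 10 matched 1 identifier, and 9 of them had a mean of at least 1 RPKM (reads scaled to gene length in kilobases and to the reads of the library) and were tested.

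Messenger RNA was sequenced from primary hepatocytes of C57BL/6 mice at passage 1, given either the solvent DMSO or tauroursodeoxycholic acid (TUDCA), a taurine-conjugated bile acid. The DMSO group held 1 library and the TUDCA group 2, called TUDCA replicates 1 and 2. TUDCA is labelled as 100 mM for 24 h and the DMSO label gives no time, so culture time and TUDCA cannot be told apart, and the unit of the dose was not checked elsewhere. All cultures were grown on gelatin in medium with serum and insulin, in which hepatocytes lose part of their liver programme. The age and sex of the mice are not stated, nor which library came from which of the 2 independent experiments, so the p-values measure a spread that may be technical.

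The libraries held 9757547 to 10774289 reads. All 12 hepatocyte markers were above 0, with Alb (albumin) at 5771 RPKM in DMSO and at 7177 and 6111 RPKM with TUDCA, though the urea cycle gene Cps1 was low at 2.62 to 6.08 RPKM. Markers of stellate cells, which store retinol in liver, were low, and the 12 genes summed to at most 15.8 RPKM per library. Among them Lrat, which esterifies retinol in stellate cells, had at most 0.0347 RPKM. Macrophage markers summed to 230.1 to 243.3 RPKM, most of it Cd68, and endothelial markers to 17.3 to 18.3 RPKM. In bulk RNA, fewer cells of a type and less RNA per cell cannot be told apart.

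With TUDCA the aldehyde dehydrogenases Aldh1a1, Aldh1a7 and Aldh3a2 rose to about double the DMSO level, and the other tested members did not pass the test. Levels below are RPKM, with DMSO first and then TUDCA replicates 1 and 2. A log2 fold change is the TUDCA mean minus DMSO in log2(RPKM + 1), given ± SE, and its p-value comes from limma, adjusted over all genes tested. Called means an adjusted p below 0.05. In all, 3 of the 9 tested members were called higher and none lower, with 4 and 0 at an unadjusted p below 0.05. Of all 11300 genes tested, 2.65% were called, 1.77% higher and 0.876% lower. The members were chosen with earlier results of these data known, so their count is not independent evidence. Aldh1a1 and Aldh1a7 can also share reads, as described below, so their calls may not be separate.

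Aldh1a1 and Aldh1a7 are neighbours on chromosome 19 with no coding gene between them. Aldh1a1 is the cytosolic retinal dehydrogenase of adult liver, and Aldh1a7 is its rodent paralog, known as an aldehyde dehydrogenase induced by phenobarbital. The 120 bases before their transcription starts are shown because these stretches are nearly the same. Capitals mark the CCAAT box and the octamer ATGCAAAT, a motif bound by POU factors. The sequences are from RefSeq on GRCm38.p6, written 5′ to 3′ on the gene's strand, at chr19:20601848-20601967 on the plus strand for Aldh1a1 and chr19:20727557-20727676 on the minus strand for Aldh1a7.
Aldh1a1: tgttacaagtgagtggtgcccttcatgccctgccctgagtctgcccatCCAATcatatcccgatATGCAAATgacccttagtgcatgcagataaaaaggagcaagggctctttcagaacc
Aldh1a7: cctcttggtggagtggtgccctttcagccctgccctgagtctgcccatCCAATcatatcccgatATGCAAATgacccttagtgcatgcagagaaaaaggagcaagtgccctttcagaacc

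Set side by side without gaps, these stretches carry the same base at 105 of 120 positions, and a run of 65 bases, from -94 to -30 relative to the start, is identical. For the other 35 pairs of members in the promoter table, 19 to 39 of the 120 positions matched and the longest shared run in 250 bases was 10 bases. Aldh1a1 and Aldh1a7 are neighbouring paralogs with similar transcripts as well, so this comparison describes likeness of sequence only. The octamer lay at -56 to -49 and a CCAAT box at -72 to -68 in both genes. Within 250 bases before the start, the octamer on either strand was found in 1.6% of 32851 promoter windows and in no other of the 9 members in the table (all but Aldh2), while CCAAT was found in 33.8% of windows and in 6 of the 9 members. A match describes letters only, no binding was measured, and a link between these letters and the rise was not tested.

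Aldh1a1 (ENSMUSG00000053279) was at 122.0 RPKM in DMSO, and at 290.2 and 225.0 RPKM with TUDCA. Both TUDCA libraries lay above DMSO, at 2.38 and 1.84 times its level, and the gene rose (log2 fold change 1.06 ± 0.20, limma adjusted p = 2.45e-05). Aldh1a7 (ENSMUSG00000024747) was at 13.9 RPKM in DMSO, and at 38.0 and 30.4 RPKM with TUDCA. It rose to 2.73 and 2.18 times DMSO (log2 fold change 1.23 ± 0.24, limma adjusted p = 5.87e-05), with the limit from shared reads given in the next paragraph, and was the only member at least 2-fold above DMSO on the log2 scale in both libraries, a size that 0.77% of all tested genes reached upward and 0.283% downward. Aldh1a7 stood at 0.114, 0.131 and 0.135 of the Aldh1a1 level in DMSO and TUDCA replicates 1 and 2. Without the filter at 1 RPKM, or against a fold change of 1.5, neither was called (adjusted p = 0.56 and 0.885 for Aldh1a1, and 0.547 and 0.455 for Aldh1a7).

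The coding transcripts of this pair are close enough for reads to be shared. The main coding transcripts of GENCODE M21 were identical at 90.3% of 2044 aligned bases, with a longest identical run of 100 bases. Of all 36-base windows of Aldh1a7, 11.4% also occurred in Aldh1a1, and of 50-base windows 7.49%. No other pair of members shared a 36-base window. Neither the read length nor the treatment of reads with several positions was stated, so how shared reads were divided is unknown. Shared sequence weighs more on Aldh1a7, the lower gene. At the lengths of these transcripts Aldh1a7 had 310, 766 and 664 reads, while 11.5% of the reads of Aldh1a1 came to 310, 669 and 562 reads for 36-base windows, and 7.53% to 203, 438 and 368 reads for 50-base windows. If every such read had been assigned to Aldh1a7, reads of Aldh1a1 would make up most of its level and rise. Counted from the recorded Aldh1a1 reads, they would be 84.6% to 100% of the Aldh1a7 reads for 36-base windows. For 50-base windows they would be 55.4% to 65.6%. Under that assignment the recorded Aldh1a1 reads would already lack the shared ones, so these shares are too low. The part of Aldh1a1 reads would be smaller if shared reads were divided, or none if they were discarded, and it was not tested. The summed level of both genes was 135.9 RPKM in DMSO, against 328.2 and 255.4 RPKM with TUDCA. If each shared read was counted once, this sum depends little on the split between them, but not if such reads were discarded or counted for both.

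Aldh3a2 (ENSMUSG00000010025) encodes the fatty aldehyde dehydrogenase of the endoplasmic reticulum, the enzyme lost in Sjögren-Larsson syndrome. It was at 19.1 RPKM in DMSO, and at 41.2 and 34.2 RPKM with TUDCA. Both TUDCA libraries were higher, at 2.16 and 1.79 times DMSO, and the gene rose (log2 fold change 0.94 ± 0.24, limma adjusted p = 0.00523). It was not called without the filter or against a fold change of 1.5 (adjusted p = 0.555 and 1.0). Its promoter is shown as that of the remaining called member (RefSeq, GRCm38.p6, chr11:61267187-61267306, minus strand, written 5′ to 3′). A link between its letters and the rise was not tested. Capitals mark the E-box CACGTG at -30 to -25 and a CCAAT box at -13 to -9.
Aldh3a2: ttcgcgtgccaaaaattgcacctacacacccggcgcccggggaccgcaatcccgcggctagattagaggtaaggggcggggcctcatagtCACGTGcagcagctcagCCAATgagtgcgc

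The E-box was found in 6.02% of all promoter windows and in none of the other 8 members searched. The window of Aldh3a2 was richer in G and C, at 61.2% of 250 bases against 46.4% for Aldh1a1 and 43.2% for Aldh1a7. A search for TGACNNNGC, the core of the antioxidant response element, found no match in the 9 windows, against 10.2% of all windows. Repeats of the nuclear receptor half-site AGGTCA, direct with a spacing of 5 or 1 and inverted with a spacing of 1, were also without a match, but each occurred in at most 0.0335% of all windows. In all, 9 motifs were searched, each on both strands. TATAAA, the letters of the TATA box, was found in 12.4% of all windows, and among the members in Adh7 and Aldh1a7. TTGCNNAA, a motif of C/EBP factors, was found in 9.56% of all windows, and among the members in Adh7 and Aldh1l1.

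**Figure D1:**
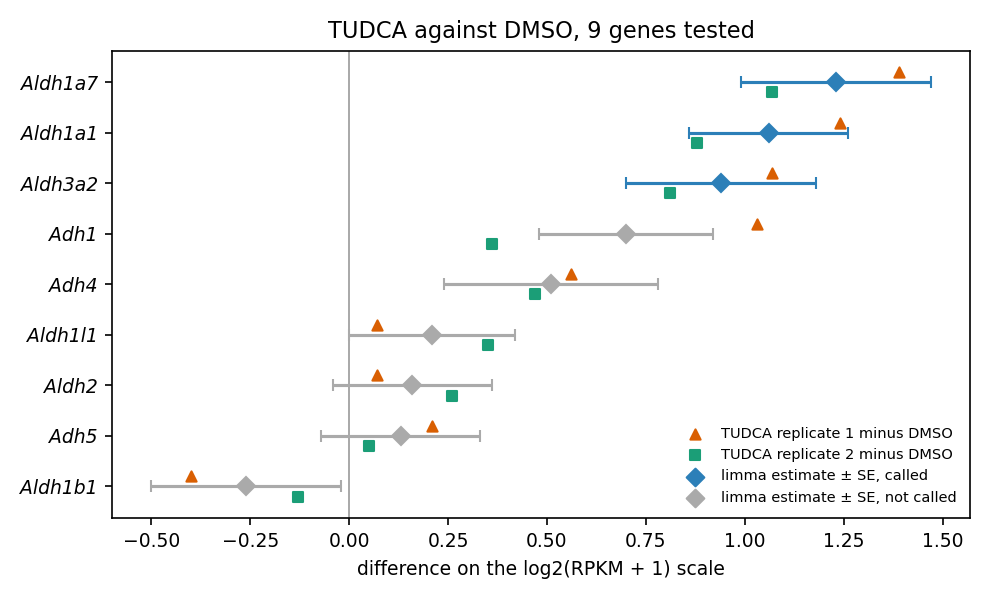
Difference of TUDCA from DMSO on the log2(RPKM + 1) scale for the 9 tested genes. Diamonds with bars are limma estimates ± SE (blue called, grey not called), and triangles and squares are TUDCA replicates 1 and 2, each minus the same DMSO library. Aldh1a7, Aldh1a1 and Aldh3a2 lie at 1.23, 1.06 and 0.94, and Aldh1b1 alone lies below 0.

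Among the alcohol dehydrogenases no gene was called, and the class I gene came closest. Adh1 (ENSMUSG00000074207), the class I enzyme that oxidises most ethanol in liver and also retinol, was at 38.9 RPKM in DMSO, and at 80.5 and 50.4 RPKM with TUDCA. Both TUDCA libraries were above DMSO, at 2.07 and 1.29 times its level, but they differed from each other by 0.67 on the log2 scale, the widest gap of the members. The log2 fold change was 0.70 ± 0.22 with a limma adjusted p of 0.0623, and 0.36 with TUDCA replicate 2 alone. Of 11 alternative fits, only rescaling to TPM (each library set to the same summed level) put Adh1 under the threshold (limma adjusted p = 0.0457). The limma adjusted p was 0.135 with quantile normalization, 0.241 with median centring and 0.238 without the variance trend, and 0.254 by voom. An antisense RNA, Gm16559, overlaps 6.09% of the exon bases of Adh1, and since no strand setting is stated, reads of both cannot be told apart.

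Adh4 (ENSMUSG00000037797), a class II enzyme of liver active on larger alcohols and retinol, was at 9.47 RPKM in DMSO, and at 14.4 and 13.5 RPKM with TUDCA. The TUDCA libraries were close to each other and both above DMSO, with a log2 fold change of 0.51 ± 0.27 that did not pass (limma adjusted p = 0.485). Adh5 (ENSMUSG00000028138) encodes the class III enzyme, which oxidises formaldehyde bound to glutathione and reduces nitrosoglutathione. It was at 199.5 RPKM in DMSO, and at 230.3 and 206.2 RPKM with TUDCA. The second TUDCA library was almost level with DMSO, and the log2 fold change was 0.13 ± 0.20 (limma adjusted p = 0.929). Adh5 was 5.12 times as high as Adh1 per length in DMSO, and 2.86 and 4.09 times with TUDCA.

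Adh7 (ENSMUSG00000055301), the class IV retinol-oxidising enzyme of stomach and other epithelia, was near the detection limit in these hepatocytes. It was at 0.165 RPKM in DMSO, and at 0.243 and 0.168 RPKM with TUDCA, from 6, 8 and 6 reads as the smallest whole numbers that fit. The exact 95% Poisson intervals of those reads, which cover counting error only, were 0.0607 to 0.36, 0.105 to 0.48 and 0.0618 to 0.367 RPKM. They overlap, so a difference was not detectable at this depth, and Adh7 was not tested. Adh7, Adh1, Adh4 and Adh5 lie in 1 cluster on chromosome 3, where Adh6a and Adh6b are the only coding genes between Adh1 and Adh4. Adh6b had no read in any library and Adh6a had 1 read in 1 library, by the same whole-number fit. Levels within the cluster thus ran from no read to about 200 RPKM, and each tested gene of it lay above DMSO in both TUDCA libraries without being called.

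The mitochondrial members had small differences. Aldh2 (ENSMUSG00000029455), which oxidises acetaldehyde from ethanol in the mitochondrial matrix, was the most abundant member in every library. It was at 350.3 RPKM in DMSO, and at 366.7 and 418.5 RPKM with TUDCA, a log2 fold change of 0.16 ± 0.20 (limma adjusted p = 0.887). Aldh1b1 (ENSMUSG00000035561), its mitochondrial relative, was at 29.3 RPKM in DMSO, and at 22.0 and 26.7 RPKM with TUDCA. It was the 1 tested member with both TUDCA libraries below DMSO, and it did not pass (log2 fold change -0.26 ± 0.24, limma adjusted p = 0.821). Aldh1b1 had 0.0836 of the level of Aldh2 in DMSO, and 0.0601 and 0.0637 with TUDCA.

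Aldh1l1 (ENSMUSG00000030088), a cytosolic enzyme that oxidises formyltetrahydrofolate to tetrahydrofolate and carbon dioxide, was at 84.9 RPKM in DMSO, and at 89.2 and 108.4 RPKM with TUDCA. Its TUDCA libraries lay on the same side of DMSO, with the first nearly level with it, and it did not pass (log2 fold change 0.21 ± 0.21, limma adjusted p = 0.847). The opposite-strand gene Gm15756 overlaps 11.0% of the exon bases of Aldh1l1, the largest overlap among the members.

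**Figure D2:**
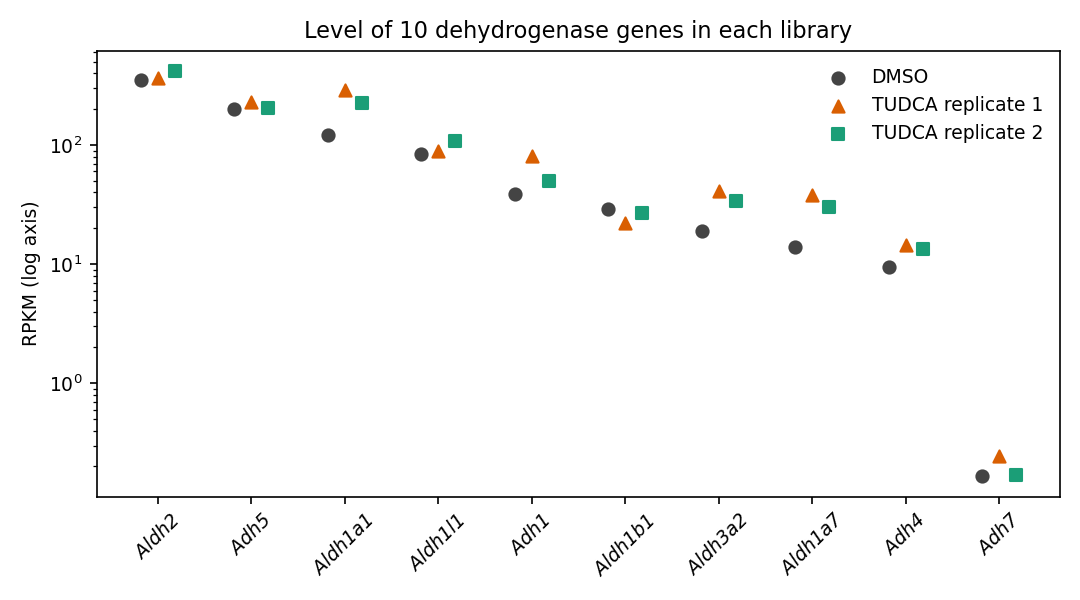
Level of each of the 10 genes in RPKM on a log axis, ordered by DMSO, with circles for DMSO and triangles and squares for TUDCA replicates 1 and 2. The TUDCA symbols of Aldh1a1, Aldh3a2 and Aldh1a7 lie clearly above DMSO, while Aldh2 stays between 350.3 and 418.5 RPKM and Adh7 below 0.25 RPKM.

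The order of the levels changed in 2 places. Per length, DMSO ranked Aldh2, Adh5, Aldh1a1, Aldh1l1, Adh1, Aldh1b1, Aldh3a2, Aldh1a7, Adh4 and Adh7. In both TUDCA libraries Aldh1a1 stood above Adh5, and Aldh3a2 and Aldh1a7 stood above Aldh1b1. The ranges of the TUDCA pair overlapped for Aldh1a1 and Adh5, and for Aldh3a2 and Aldh1a7. Within each TUDCA library Aldh1a1 lay above Adh5 and Aldh3a2 above Aldh1a7. With only 2 TUDCA libraries these orders were not tested. The 3 genes called together made up 17.9% of the summed RPKM of the 10 members in DMSO, and 31.5% and 26.0% with TUDCA. The sum itself was 867.5 RPKM in DMSO, against 1173 and 1113 RPKM with TUDCA, and the alcohol dehydrogenases contributed 248.0, 325.4 and 270.2 RPKM of it.

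Of the 9 tested members, 8 had both TUDCA libraries above DMSO and 1 had both below, against 40.5% and 30.4% of all genes tested. Both differences use the same DMSO library, so their signs are not independent. Aldh1a1 and Aldh1a7 can share reads and may not count as separate members here. The median log2 fold change of the 9 tested members was 0.51, and that of all genes tested was 0.04. Both medians are descriptions, and Adh7 has no part in the first.

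**Figure D3:**
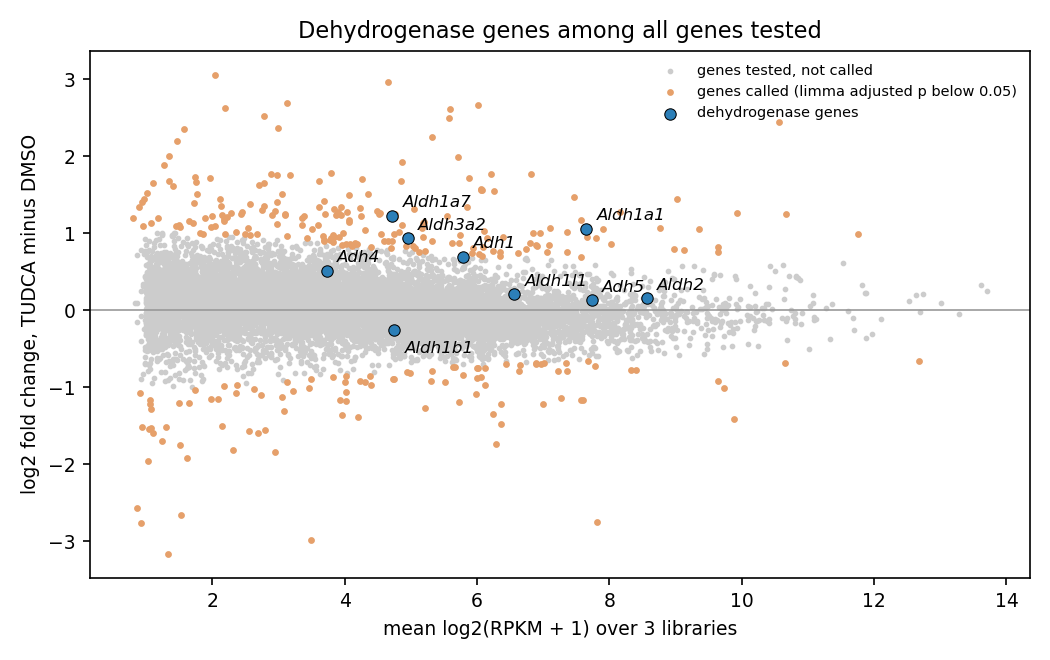
Log2 fold change of TUDCA against DMSO (vertical) and mean log2(RPKM + 1) over the 3 libraries (horizontal) for the 11300 genes tested, with called genes in orange and the 9 tested dehydrogenase genes in blue. Aldh1a7, Aldh3a2 and Aldh1a1 lie among the called genes, and the abundant Adh5 and Aldh2 lie near 0.

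Of 18 further alcohol and aldehyde dehydrogenases, 11 were tested, with 2 called higher and none lower, against 1.77% and 0.876% of all genes tested. At an unadjusted limma p below 0.05, 3 were higher and 0 lower, and voom on recovered reads called 2 higher and 0 lower. Aldh8a1, an enzyme of tryptophan breakdown that also acts on retinal, rose from 1.64 RPKM in DMSO to 5.87 and 4.05 RPKM (log2 fold change 1.16 ± 0.30, limma adjusted p = 0.00806). Aldh4a1, which completes proline breakdown in mitochondria, rose from 10.9 RPKM to 18.6 and 23.0 RPKM (a log2 fold change of 0.87 ± 0.26, limma adjusted p = 0.0343), a call lost with quantile normalization, median centring and no variance trend (adjusted p = 0.121, 0.084 and 0.0657). Aldh6a1, of valine breakdown, was at 3.76 RPKM in DMSO, and at 7.12 and 5.36 RPKM with TUDCA without passing (limma adjusted p = 0.438). The retinal dehydrogenases Aldh1a2 and Aldh1a3 had at most 0.0453 and 0.315 RPKM, against 122.0 RPKM or more for Aldh1a1.

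Of 32 genes that handle retinoids, 22 were tested, and 1 was called higher, none lower, against 1.77% and 0.876% of all genes tested. At an unadjusted limma p below 0.05, 2 were higher and 0 lower, and voom called 2 higher and 0 lower. Dhrs3, which reduces retinal back to retinol and is known as a target of retinoic acid, rose from 9.20 RPKM in DMSO to 30.5 and 25.6 RPKM (log2 fold change 1.51 ± 0.25, limma adjusted p = 5.84e-07). Cyp26a1, which degrades retinoic acid and is another of its targets, was at 12.1 RPKM in DMSO, and at 18.6 and 14.7 RPKM with TUDCA, which did not pass (limma adjusted p = 0.641). Rdh9, a retinol and steroid dehydrogenase, was at 0.671 RPKM in DMSO, and at 2.00 and 2.63 RPKM with TUDCA (limma adjusted p = 0.0649), and it was called higher with a pseudocount of 0.1, without the variance trend and by voom (adjusted p = 0.0387, 0.0214 and 0.0369).

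Rdh10 and Rdh5, which oxidise retinol to retinal, did not pass. Rdh10 was at 18.3 RPKM in DMSO, and at 17.8 and 28.2 RPKM with TUDCA, with the TUDCA libraries on both sides of DMSO (limma adjusted p = 0.813). Rdh5 was at 18.6 RPKM in DMSO, and at 11.7 and 15.3 RPKM with TUDCA (limma adjusted p = 0.596). The receptor genes Rara, Rarb and Rarg, and Rxra, Rxrb and Rxrg, were tested too and none was called.

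Of 21 enzymes that handle aldehydes, carbonyls or ethanol outside both families, 18 were tested, and 3 were called higher, none lower. Among all genes tested, 1.77% were called higher and 0.876% lower. At an unadjusted limma p below 0.05, 5 of these enzymes were higher and 0 lower, and voom called 3 higher and 0 lower. Akr1c14, a hydroxysteroid dehydrogenase of the aldo-keto reductases, rose from 2.20 RPKM in DMSO to 14.3 and 5.59 RPKM. Its log2 fold change was 1.65 ± 0.29 (limma adjusted p = 3.14e-06), and 1.04 without TUDCA replicate 1 against 2.26 without TUDCA replicate 2. With TUDCA libraries this far apart, the p-value is too small, since the fit used a common SD. Aox3, a liver aldehyde oxidase, rose from 1.48 RPKM to 5.14 and 4.59 RPKM (a log2 fold change of 1.24 ± 0.30, limma adjusted p = 0.00331). Akr1c6, another hydroxysteroid dehydrogenase, rose from 2.57 to 7.53 and 4.90 RPKM (limma adjusted p = 0.0376), a call lost with quantile normalization (adjusted p = 0.12), by voom (0.159) and after correction for GC content and length (0.0521). Reads of the Akr1c genes can be split between close paralogs. In DMSO the called genes Aldh8a1, Aox3 and Akr1c6 rest on as few as 33, 29 and 23 reads, the range in which the test is least reliable.

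Enzymes on either side of the ethanol and formaldehyde steps were measured and not called. Cyp2e1, the microsomal ethanol oxidase, was at 175.7 RPKM in DMSO, and at 229.9 and 236.8 RPKM with TUDCA (limma adjusted p = 0.439). Catalase (Cat) was at 478.1 RPKM in DMSO, and at 606.9 and 542.6 RPKM with TUDCA (limma adjusted p = 0.743). Esd, which hydrolyses the formylglutathione that Adh5 makes, was at 1825 RPKM in DMSO, and at 1735 and 1824 RPKM with TUDCA (limma adjusted p = 0.99). Adh5 stood at 1.15 and 1.03 times its DMSO level, and Esd at 0.95 and 0.999 times.

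Of the 16 folate one-carbon enzymes beside Aldh1l1, all 16 were tested and limma called none in either direction, with 0 at an unadjusted p below 0.05 and 0 by voom. The median log2 fold change was -0.08. Among those with larger differences, Tyms (thymidylate synthase) stood at 6.02 RPKM in DMSO, then 9.41 and 7.88 RPKM with TUDCA (limma adjusted p = 0.641). Shmt2 (mitochondrial serine hydroxymethyltransferase) stood at 78.5 RPKM, then 55.0 and 64.8 RPKM (limma adjusted p = 0.564).

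**Figure D4:**
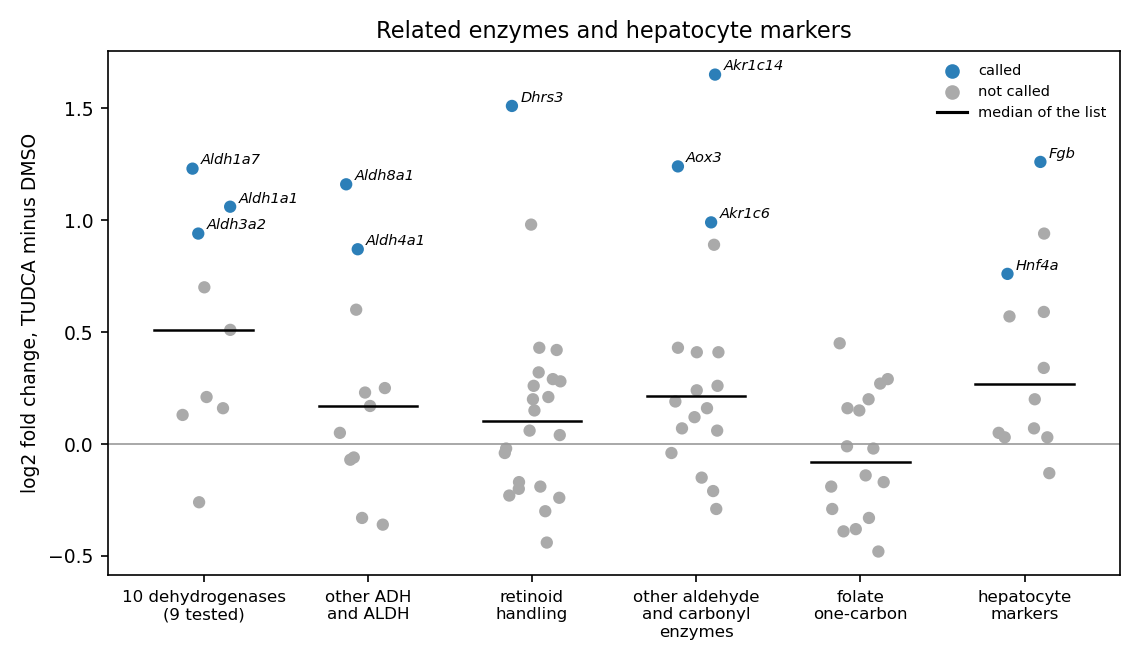
Log2 fold change of TUDCA against DMSO for each tested gene of the dehydrogenases and of 5 other lists, with called genes in blue and named, genes not called in grey, and a black line at each list's median. The medians were 0.51 for the tested dehydrogenases, 0.17, 0.10, 0.21 and -0.08 for the 4 enzyme lists from left to right, and 0.27 for the hepatocyte markers.

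Markers of cell identity moved beside these genes. Of the 12 hepatocyte markers, 2 were called higher and none lower, against 1.77% and 0.876% of all genes tested. Fgb (fibrinogen beta chain) rose from 914.3 to 2530 and 1885 RPKM. Hnf4a, a transcription factor of hepatocytes, rose from 115.0 to 198.6 and 191.2 RPKM. The call of Hnf4a was lost with median centring and without the variance trend (adjusted p = 0.153 and 0.16). The 12 summed to 11980 RPKM in DMSO, against 15350 and 13370 RPKM with TUDCA, and Alb was not called (limma adjusted p = 0.847). Most of the higher sum was Fgb and Alb in TUDCA replicate 1, and Fgb alone in TUDCA replicate 2. Both TUDCA libraries lay above DMSO for 9 of the 12 markers. Apoa1 fell in both, from 2312 to 2096 and 2135 RPKM, while Ahsg and Asgr1 were below DMSO in TUDCA replicate 2 only. Of 10 keratinocyte markers, 5 were tested and 4 were called lower, where 0.876% of all genes tested were called lower. The 10 summed to 9718 RPKM in DMSO, against 5749 and 5747 RPKM with TUDCA, most of it Sprr1a. The basal keratin Krt5 was called lower, from 29.6 RPKM to 15.5 and 14.5 RPKM (limma adjusted p = 0.0128), as were Lor, Crct1 and Sprr1a. Krt14, Krt1 and Trp63 had no read. The call of Sprr1a was lost with a filter at 5 RPKM, median centring, no variance trend and correction for GC content and length (limma adjusted p = 0.0563, 0.156, 0.289 and 0.0656). That of Lor was lost with TPM and the same correction (limma adjusted p = 0.0716 and 0.0506). Against a fold change of 1.5 only Crct1 was still called. Cholangiocyte markers summed to 51.3 RPKM in DMSO, against 56.3 and 71.7 RPKM with TUDCA, with Cftr and Sctr at no read and none called. The part of these markers in the rise of Aldh1a1, Aldh1a7 and Aldh3a2 was not tested.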

How the data were processed

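The authors deposited RPKM values, 1 table per library, per the file headers. Per the submitters' processing notes, the tools included HTSeq, Bowtie2, CASAVA and TopHat2 2.0.7, in roles that are not stated. Genome build, annotation and strand setting were not given in the sources. Symbols came from GENCODE M21 by identifier (32897 of 37620 matched). All 161 entries of 11 gene lists matched an identifier, 1 of them by a synonym. Members and lists were chosen with earlier results of these data known.

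RPKM ratios gave the library totals (10774289 reads for DMSO, 9757547 and 10575699 for TUDCA), and each gene's smallest whole reads (within 1e-06) summed to 95.7 to 95.8% of them. A read over 1 kb was worth 0.0928 to 0.1025 RPKM. A gene may hold a multiple of its smallest reads.

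Values were tested as log2(RPKM + 1) on the 11300 genes whose mean was 1 RPKM or more, with limma 3.58.1 in R 4.3.3 (variance trend, Benjamini-Hochberg adjustment, threshold 0.05). The 1 residual degree of freedom came from the TUDCA pair, and the DMSO library, alone in its group, is assumed to vary to the same extent. limma's prior degrees of freedom were infinite, so each gene got the common SD at its level (0.159 to 0.265), and p-values are too small for genes whose TUDCA libraries differ widely. On simulated reads the fit gave changed genes their right direction, but unchanged genes made up more of its calls than the threshold allows, most of them genes with few reads. Fold changes of low genes are understated.

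All members are named, and of each enzyme list the called genes, or the 3 with the largest fold change where fewer than 3 were called, with Alb, Aldh1a2, Aldh1a3, Rdh10 and Lrat; some genes that this rule names are not reported here. Other genes named (Cyp26a1, the receptors, Adh6a, Adh6b, Cyp2e1, Cat, Esd and cell markers) were chosen after their values were seen. Promoters came from a RefSeq table (GRCm38.p6), at the listed start nearest to the transcript used, and 9 members matched. Transcripts were aligned with Biopython 1.88. Alternatives are given in the closing section.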

Additional observations from a re-analysis of the deposited data

How the results depend on the processing

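The direction of all 9 tested members was the same under each of the 11 alternative fits, with log2 fold changes of 0.99 to 1.14 for Aldh1a1, 1.15 to 1.28 for Aldh1a7, 0.87 to 0.97 for Aldh3a2 and 0.62 to 0.74 for Adh1. Fits that changed only the filter, the variance estimate or the fold change tested kept the same log2 fold changes. In those fits the direction could not differ. Without the filter on low values, 0 members and 0 of 19146 genes were called (1696 genes at an unadjusted p below 0.05), since limma then pooled the spread less, with 1.11 prior degrees of freedom in place of an infinite number. Tested against a fold change of 1.5, 0 members and 57 genes were called in place of 3 and 299. In the other 9 fits 3 members were called, or 4 with TPM, and 232 to 398 genes; the highest count came after a correction for GC content and transcript length that was chosen after seeing the data. With 1 TUDCA library there is no test. The number of genes at least 2-fold from DMSO was then 188 to 284, against 119 in both libraries, and that of members 1 to 4, against 1. Leaving out TUDCA replicate 1 gave a log2 fold change of 0.88 for Aldh1a1, 1.07 for Aldh1a7, 0.81 for Aldh3a2 and 0.36 for Adh1. Leaving out TUDCA replicate 2 gave 1.24, 1.39, 1.07 and 1.03. No scaling moved the median of all genes by over 0.1 on the log2 scale. No paired analysis was possible because the groups share only 1 replicate number. With 1 DMSO library, the effect of TUDCA and the variation of that culture cannot be told apart.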
